A study of Mus musculus with 2 samples.

Results

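The genes of cholesterol and fatty acid synthesis were followed in LSKs sorted from the bone marrow (BM) of Scl/tTA-BA mice. These are 35 of the 34745 genes in the deposited tables, taken by symbol. Of them, 19 encode enzymes of mevalonate, isoprenoid and sterol synthesis. They are counted below as sterol synthesis enzymes, with Ggps1 of the isoprenoid branch among them. Another 5 are the genes of SREBP control, and 6 encode enzymes of fatty acid synthesis. The rest are the sterol carrier gene Stard4, the efflux genes Abca1 and Abcg1, and the LXR receptor genes Nr1h2 and Nr1h3. With a limit of at least 20 reads over both libraries, 32 of the 35 genes were measured, as were 12192 of all genes. The other 3, Fdps, Nr1h3 and Scd1, are given by their reads and left out of counts and medians.

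Scl/tTA-BA mice carry BCR/ABL (BA), the fusion kinase of chronic myelogenous leukemia, under a tet-off switch driven by the Scl/tTA transgene in hematopoietic stem and progenitor cells, on a C57BL/6 background. All mice of both groups were double transgenic and were raised on doxycycline, which keeps BA off. The week-0 group was still on doxycycline, and the week-3 group had been without it for 3 weeks. LSKs, the lineage-negative, Sca1+ and c-Kit+ fraction that holds hematopoietic stem cells, were sorted and mixed from 3 mice per group, and 1 RNA-seq library was made per group, so the spread between mice is unknown and no test of the condition exists. Mouse ages and sexes were not given in the sources used here.

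Cells make cholesterol from acetyl-CoA through mevalonate, isoprenoids, squalene and lanosterol. When membrane sterol is low, SCAP carries SREBP from the endoplasmic reticulum to the Golgi, proteases release its active part, and SREBP-2 turns on the sterol enzymes while SREBP-1 mainly turns on fatty acid enzymes; INSIG proteins hold the complex back when sterol is plentiful. LXR receptors work in the opposite direction, since oxysterols activate them and they turn on the exporters ABCA1 and ABCG1. In mouse hematopoietic stem and progenitor cells, efflux through these exporters is known to restrain proliferation.

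The sequences of the pathway's opposing arms are shown first, because a miRNA with sites in both exporter genes lies within Srebf2. The gene of SREBP-2, Srebf2, has 19 exons in GENCODE M21 and carries a microRNA in intron 16. The hairpin of miR-33, which is known to target Abca1 and Abcg1, lies at chr15:82198122-82198190 on the plus strand and overlaps no exon. Its mature strand, from RefSeq on GRCm38.p6 at chr15:82198127-82198147, is given with bases 2 to 8, the seed, in capitals, and the stretches of the 3′ UTRs of Abca1 and Abcg1 that hold its sites are given with the 7-base match CAATGCA in capitals.

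mmu-miR-33-5p: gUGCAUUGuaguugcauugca
Abca1, bases 131 to 160 of a 3′ UTR of 3156 bases: tattCAATGCAATGCActtCAATGCAacga
Abcg1, bases 711 to 740 of a 3′ UTR of 3703 bases: gcaacgCAATGCAacgCAATGCAgacagtg

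Abca1 held 3 such matches, the first 2 of them overlapping, and Abcg1 held 2. Acaca and Nsdhl held 1 each. The match was thus present in 4 of the 35 genes (11.4%), against 1347 of 20199 3′ UTRs of at least 50 bases (6.67%). The mature miRNA was not measured by this RNA-seq, and a match is a description of the letters only.

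Promoter stretches are shown for both arms: Hmgcs1 as an SREBP target, Srebf2 itself, Abca1 and Fasn with an element of the LXR type, and the receptor gene Nr1h2. They are from RefSeq on GRCm38.p6, written 5′ to 3′ on the strand of the gene. Capitals mark the sterol regulatory element TCACNCCAC and the NF-Y box CCAAT, which reads ATTGG where it lies on the other strand, and in Abca1 and Fasn also that element.

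Hmgcs1, chr13:119690161-119690320, plus strand: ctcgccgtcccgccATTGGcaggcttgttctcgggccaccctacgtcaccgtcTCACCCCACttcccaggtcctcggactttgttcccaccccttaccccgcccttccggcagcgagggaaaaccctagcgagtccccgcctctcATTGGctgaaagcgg
Srebf2, chr15:82147109-82147268, plus strand: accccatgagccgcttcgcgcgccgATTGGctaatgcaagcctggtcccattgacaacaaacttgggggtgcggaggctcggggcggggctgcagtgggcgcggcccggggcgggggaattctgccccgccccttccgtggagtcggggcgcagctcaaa
Abca1, chr4:53159896-53160015, minus strand: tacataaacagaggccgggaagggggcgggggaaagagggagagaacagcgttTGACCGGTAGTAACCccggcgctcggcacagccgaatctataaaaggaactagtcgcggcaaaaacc
Fasn, chr11:120824593-120824782, minus strand: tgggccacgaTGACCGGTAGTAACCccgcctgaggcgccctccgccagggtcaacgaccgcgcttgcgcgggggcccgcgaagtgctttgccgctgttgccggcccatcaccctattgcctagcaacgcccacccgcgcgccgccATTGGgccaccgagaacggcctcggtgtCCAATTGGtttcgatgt
Nr1h2, chr7:44553966-44554085, minus strand: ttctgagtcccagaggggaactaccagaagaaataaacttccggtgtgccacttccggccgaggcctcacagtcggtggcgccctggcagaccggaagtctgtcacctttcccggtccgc

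Promoters of 28 of the 35 genes were in the table, and Stard4, Abcg1, Scd1, Scd2, Fdps, Fdft1 and Sqle were not. Each promoter ran from 250 bases before the RefSeq start of transcription to 50 after it, with the first transcribed base at position 0, and both strands were searched. The sterol regulatory element in the exact form TCACNCCAC was found in Hmgcs1, at position -137, and in no other of the 28. It was present in 388 of 27025 genes with a promoter (1.44%). No looser form of this element was searched, so variants of it in the other genes would be missed.

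The NF-Y box, bound by a factor that works beside SREBP, was present in 21 of the 28 genes and in 15 of the 16 sterol synthesis enzymes searched, against 41.1% of all genes. Acat2 was the enzyme without it. The GC box GGGCGG was present in 21 of the 28 genes and in 14 of the 16 enzymes, against 38.2% of all genes. LXR binds a pair of half-sites AGGTCA set 4 bases apart, and that exact form was in 4 genes of all and in none of the 28. A looser form, GGTNA and GGTCA set 5 bases apart, was chosen to take in the known element of Abca1, so its presence there is no finding. It was also found in Srebf1 and Fasn, and in 61 genes in all (0.226%).

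**Figure D1:**
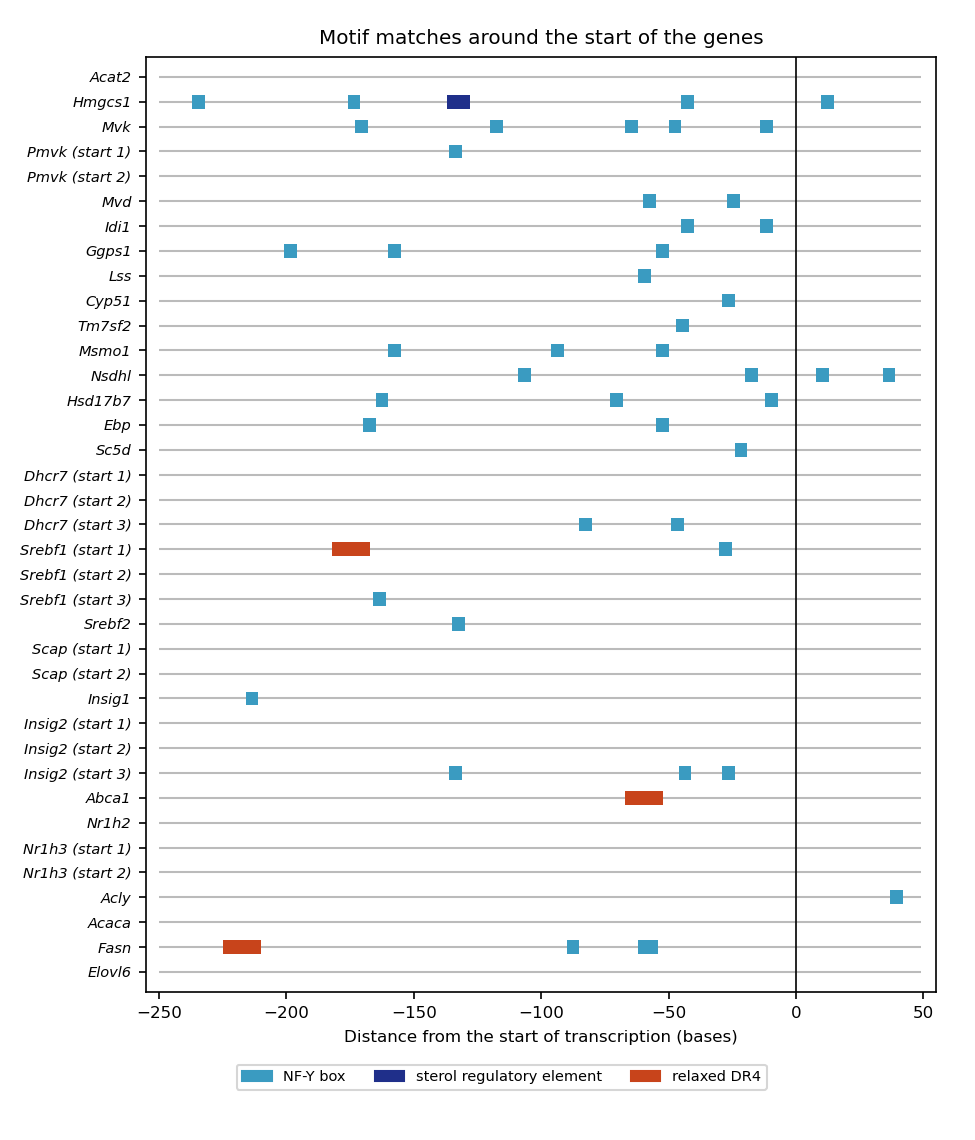
Matches of 3 motifs (colours) along the promoter of each gene, with the distance in bases from the RefSeq start of transcription on the x axis and 1 line per start. The NF-Y box (light blue) recurs in 15 of the 16 sterol enzymes, while the looser LXR-type element (orange) is in Srebf1, Abca1 and Fasn.

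Depth was 6356164 gene reads for week-0 and 3886695 for week-3, and 3 reads, the limit for a gene listed at 0, corresponded to 0.472 and 0.772 CPM. Levels are given as deposited FPKM, which are fragments per kilobase of exon scaled by the reads of the library, and changes as the log2 ratio of FPKM, week-3 over week-0, followed in parentheses by its exact 95% Clopper-Pearson interval. The intervals cover counting error only, and since the cDNA was amplified, reads need not stand for separate molecules. The exon length behind the FPKM was 0.558 to 4.85 times that of the longest coding transcript of these genes, so the order of levels between genes depends on it, while the ratio of a gene between libraries does not. In bulk RNA, fewer cells of a type and less RNA per cell cannot be told apart.

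Marker genes of several cell types differed between the libraries. Of 7 LSK markers, 6 were lower at week-3 with intervals below 0 and 1, Slamf1, was higher. Their summed level went from 262 to 109 FPKM, and most of that fall was Flt3, at 157 FPKM at week-0 against 38.9 at week-3. The sorted receptor Kit had 16.9 FPKM at week-0 against 11.5 at week-3 (1391 and 580 reads). Ly6a, which encodes Sca1, had 19.8 FPKM at week-0 against 14.8 at week-3 (434 and 199 reads). All 6 mast cell and basophil markers were higher (summed 120 to 1883 FPKM), as were the 5 of 6 neutrophil markers with at least 20 reads (all 6 summed 221 to 948 FPKM). All 4 plasma cell markers were lower (8592 to 424 FPKM), and so were 3 erythroid markers (545 to 28.7 FPKM), 2 of them with an interval below 0. Of the 3 B cell markers (summed 12.8 to 0.415 FPKM, 1 at 0 at week-3), Cd79a had at least 20 reads and was lower. The 3 T cell markers had too few reads to compare (summed 1.14 and 0.387 FPKM, 1 at 0 at week-3). Of the 10 macrophage markers, 4 were higher and 5 lower, with 1 at 0 at week-0 and 4 at week-3. The 2 with at least 20 reads, Csf1r (2.95 FPKM at week-0 against 5.57 at week-3) and Cd68 (13.3 FPKM at week-0 against 22.9 at week-3), were higher and made up most of the sums of 19.5 and 30.1 FPKM. The part of these markers in the values below was not tested. The mouse row of Bcr, a part of the fusion, had 8.93 FPKM at week-0 against 4.25 at week-3 (371 and 108 reads). That of Abl1, the other part, had 2.997 FPKM at week-0 against 1.79 at week-3 (395 and 144 reads). Whether reads of the transgene are counted on those rows is not given in the sources used here.

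Among the 32 measured genes, 2 were upregulated at least 2-fold, Mvd and Lss, against 10.6% of all genes, and 3 were downregulated to 0.5 of the week-0 level or less, Srebf2, Abca1 and Nr1h2, against 15.6% of all genes. Both shares were below the background. At 1.5-fold, 10 genes were higher (23.7% of all genes) and 5 were lower (24.6%). The counting interval lay above 0 for 13 genes, against 34.0% of all genes, and below 0 for 6, against 28.5%. The median log2 ratio was 0.17 over the 32 genes and 0.07 over all genes. Of the 32, 21 were higher and 11 lower, against 53.4% of all genes higher (6505 of 12192). Scaling the libraries by TMM in place of total reads lowers every ratio by 0.11, which leaves 18 of the 32 and 5829 of the 12192 higher. Medians are therefore also given relative to that of all genes. The intervals are those for total reads only. The lower limits of Mvk (0.03), Insig2 (0.06) and Abcg1 (0.0020) are smaller than the TMM shift. So are the upper limits of Cyp51 (0.03) and Tm7sf2 (0.09), and interval counts thus depend on the scaling. Between the roles, medians ranged from -1.05 for the LXR genes to 0.62 for the mevalonate steps.

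**Figure D2:**
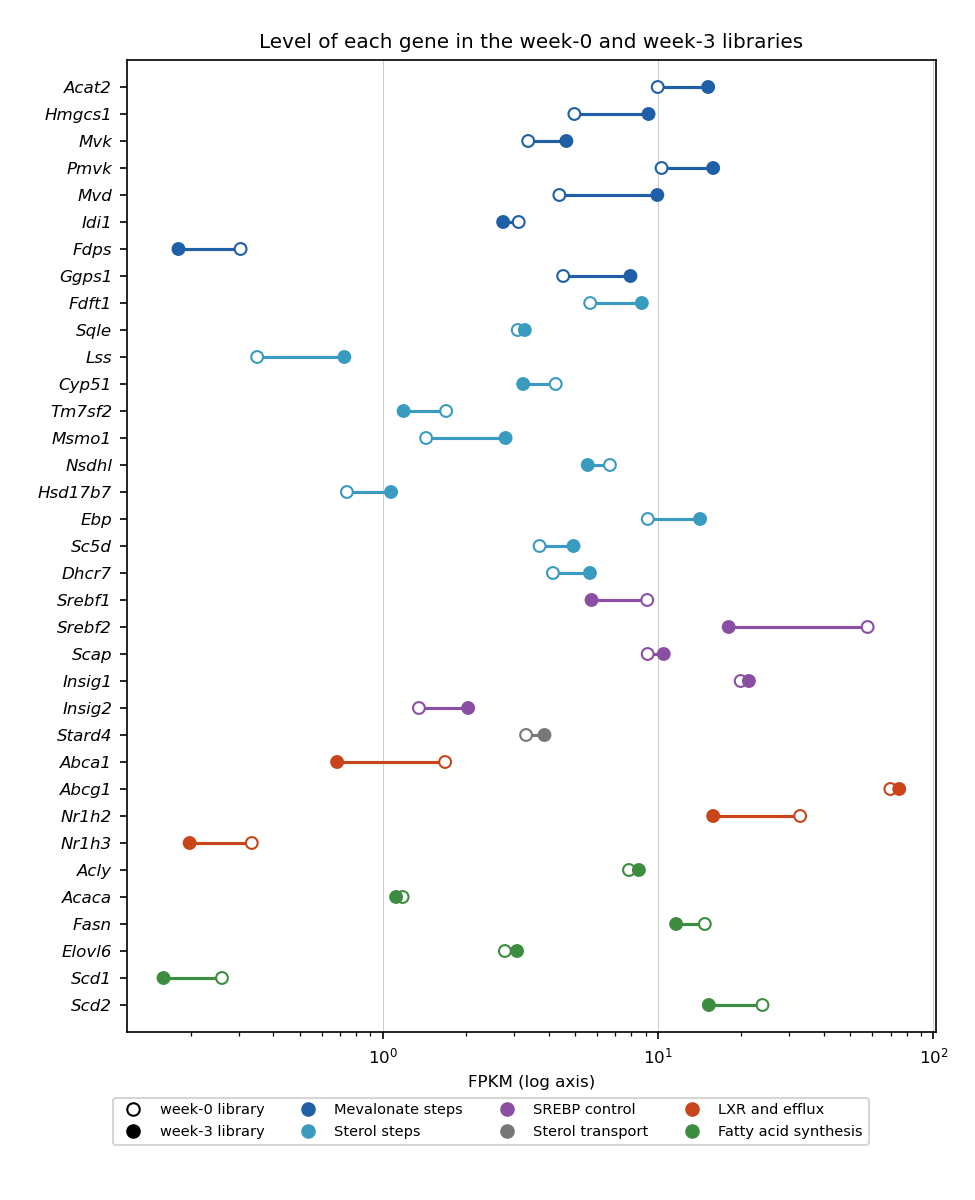
FPKM of the 35 genes on a log axis, with an open circle for the week-0 library, a filled circle for the week-3 library and a colour for each role. Most sterol enzymes have the filled circle on the right, and Srebf2, Abca1 and Nr1h2 have it far on the left.

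The sterol synthesis enzymes were mostly higher at week-3. Of the 18 measured, 14 were higher and 4 lower (13 and 5 under TMM), against 53.4% of all genes higher. Their median log2 ratio was 0.57, which is 0.50 above that of all genes. Their summed level was 81.9 FPKM at week-0 and 117 FPKM at week-3. Of these 18, Mvd and Lss were past 2-fold (10.6% of all genes upward). Past 1.5-fold were 9 of the 18, all of them upward (23.7% of all genes upward). The interval lay above 0 for 11 enzymes (34.0% of all genes) and below 0 for none (28.5% of all genes). These counts are for total reads, and the limits of Mvk, Cyp51 and Tm7sf2 nearest to 0 are within the TMM shift.

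In the mevalonate steps, 6 of the 7 measured enzymes were higher and the median was 0.62. Mvd, the decarboxylase that makes isopentenyl diphosphate, had 4.38 FPKM at week-0 against 9.94 at week-3 (49 and 68 reads). Its fold was 2.27, a log2 ratio of 1.18 (0.63 to 1.74), and among the 32 measured genes none rose further. Mvd lies at chr8:122433596-122443422 on the minus strand. Hmgcs1, the synthase that makes HMG-CoA and the gene with the sterol regulatory element printed above, had 4.96 FPKM at week-0 against 9.23 at week-3 (102 and 116 reads), a ratio of 1.86 that did not reach 2-fold, with a log2 ratio of 0.90 (0.50 to 1.29). Ggps1, which makes the geranylgeranyl diphosphate used to anchor small GTPases, had 4.52 FPKM at week-0 against 7.93 at week-3 (68 and 73 reads) and a log2 ratio of 0.81 (0.32 to 1.31).

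The kinases of the same steps had smaller ratios. Pmvk, phosphomevalonate kinase, had 10.3 FPKM at week-0 against 15.8 at week-3 (205 and 193 reads) and a log2 ratio of 0.62 (0.33 to 0.91). Mvk, mevalonate kinase, had 3.37 FPKM at week-0 against 4.64 at week-3 (101 and 85 reads) and a log2 ratio of 0.46 (0.03 to 0.89), so its interval only just cleared 0. Acat2, the thiolase at the entry of the pathway, had 9.97 FPKM at week-0 against 15.2 at week-3 (222 and 207 reads) and a log2 ratio of 0.61 (0.33 to 0.89), and 45.9% of its 50-base stretches also occur in transcripts of other genes, mainly Acat3, so its reads may be split. Idi1, the isomerase of isopentenyl diphosphate, was the enzyme of these steps on the other side, with 3.12 FPKM at week-0 against 2.73 at week-3 (95 and 51 reads) and a log2 ratio of -0.19 (-0.71 to 0.32), and it shares 21.3% of its 50-base stretches. Fdps, farnesyl diphosphate synthase, had only 11 and 4 reads (0.304 FPKM at week-0 against 0.181 at week-3). Since 86.4% of its 50-base stretches are shared with other genes, its level is uncertain.

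In the sterol steps, from squalene to cholesterol, 8 of 11 enzymes were higher and 3 lower, with a median of 0.45. Lss, which folds squalene epoxide into lanosterol, had 0.349 FPKM at week-0 against 0.725 at week-3 (41 and 52 reads), a fold of 2.07 and a log2 ratio of 1.05 (0.43 to 1.68). Its interval spans the 2-fold limit, and under TMM or median-of-ratios scaling Lss falls short of it, as it does with log2(FPKM + 0.1), at 0.88, and with log2(FPKM + 1), at 0.35. Lss lies at chr10:76531588-76557138 on the plus strand. Msmo1, the methyl sterol oxidase, had 1.44 FPKM at week-0 against 2.79 at week-3 (90 and 107 reads) and a log2 ratio of 0.96 (0.54 to 1.38), just short of the limit. Ebp, the sterol isomerase, had 9.17 FPKM at week-0 against 14.2 at week-3 (208 and 197 reads) and a log2 ratio of 0.63 (0.34 to 0.92). Fdft1, squalene synthase and the first enzyme committed to sterols, had 5.67 FPKM at week-0 against 8.73 at week-3 (103 and 97 reads) and a log2 ratio of 0.62 (0.21 to 1.04), and shares 10.9% of its 50-base stretches.

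The other sterol enzymes had smaller ratios or ratios below 0. Dhcr7, which makes the last reduction of one branch, had 4.15 FPKM at week-0 against 5.65 at week-3 (192 and 160 reads) and a log2 ratio of 0.45 (0.13 to 0.76). Sc5d, the desaturase before it, had 3.71 FPKM at week-0 against 4.93 at week-3 (80 and 65 reads) and a log2 ratio of 0.41 (-0.08 to 0.90), an interval that includes 0. Hsd17b7, the keto-reductase of the demethylation complex, had few reads, with 0.740 FPKM at week-0 against 1.07 at week-3 (26 and 23 reads) and a log2 ratio of 0.53 (-0.34 to 1.40). Sqle, squalene epoxidase, a rate-limiting enzyme, had 3.09 FPKM at week-0 against 3.28 at week-3 (168 and 109 reads) and a log2 ratio of 0.09 (-0.28 to 0.44), a sign that turns under TMM (-0.027) and median-of-ratios scaling (-0.0038). The remaining enzymes had ratios below 0, but with intervals that include 0. They were Cyp51, the lanosterol demethylase, with 4.25 FPKM at week-0 against 3.23 at week-3 (146 and 68 reads) and a log2 ratio of -0.39 (-0.83 to 0.03), Nsdhl, the dehydrogenase of the demethylation complex, with 6.68 FPKM at week-0 against 5.55 at week-3 (128 and 65 reads) and a log2 ratio of -0.27 (-0.72 to 0.17), and Tm7sf2, a sterol reductase, with 1.70 FPKM at week-0 against 1.19 at week-3 (77 and 33 reads) and a log2 ratio of -0.51 (-1.15 to 0.09). Of these, Cyp51 and Nsdhl act in the steps that strip methyl groups from lanosterol, in which Msmo1 and Hsd17b7 also act.

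Both SREBP genes were lower at week-3. Srebf2, which encodes SREBP-2 and hosts miR-33 (chr15:82147266-82205376, plus strand), had 57.7 FPKM at week-0 against 18.05 at week-3 (1830 and 350 reads). Its week-3 level was 0.313 of that at week-0, a log2 ratio of -1.68 (-1.85 to -1.51), and no other of the 32 measured genes changed as far in either direction. Srebf1, which encodes SREBP-1 and is itself an LXR target, had 9.13 FPKM at week-0 against 5.73 at week-3 (534 and 205 reads) and a log2 ratio of -0.67 (-0.91 to -0.44), past 1.5-fold but not 2-fold. Neither gene's interval reached 0, and both genes were well covered in each library.

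The genes of the proteins that hold or carry SREBP did not pass 2-fold. Scap, the escort, had 9.16 FPKM at week-0 against 10.5 at week-3 (519 and 363 reads) and a log2 ratio of 0.19 (-0.0036 to 0.39). Insig1, the retention factor that SREBP itself induces, had 19.95 FPKM at week-0 against 21.4 at week-3 (438 and 287 reads) and a log2 ratio of 0.10 (-0.12 to 0.32), or -0.013 under TMM. Insig2, its homologue, had 1.35 FPKM at week-0 against 2.04 at week-3 (65 and 60 reads) and a log2 ratio of 0.59 (0.06 to 1.12). The 5 control genes had a median of 0.10, or -0.013 under TMM, near that of all genes. Stard4, which carries sterol between membranes and is an SREBP-2 target, had 3.31 FPKM at week-0 against 3.87 at week-3 (143 and 102 reads) and a log2 ratio of 0.22 (-0.16 to 0.60).

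**Figure D3:**
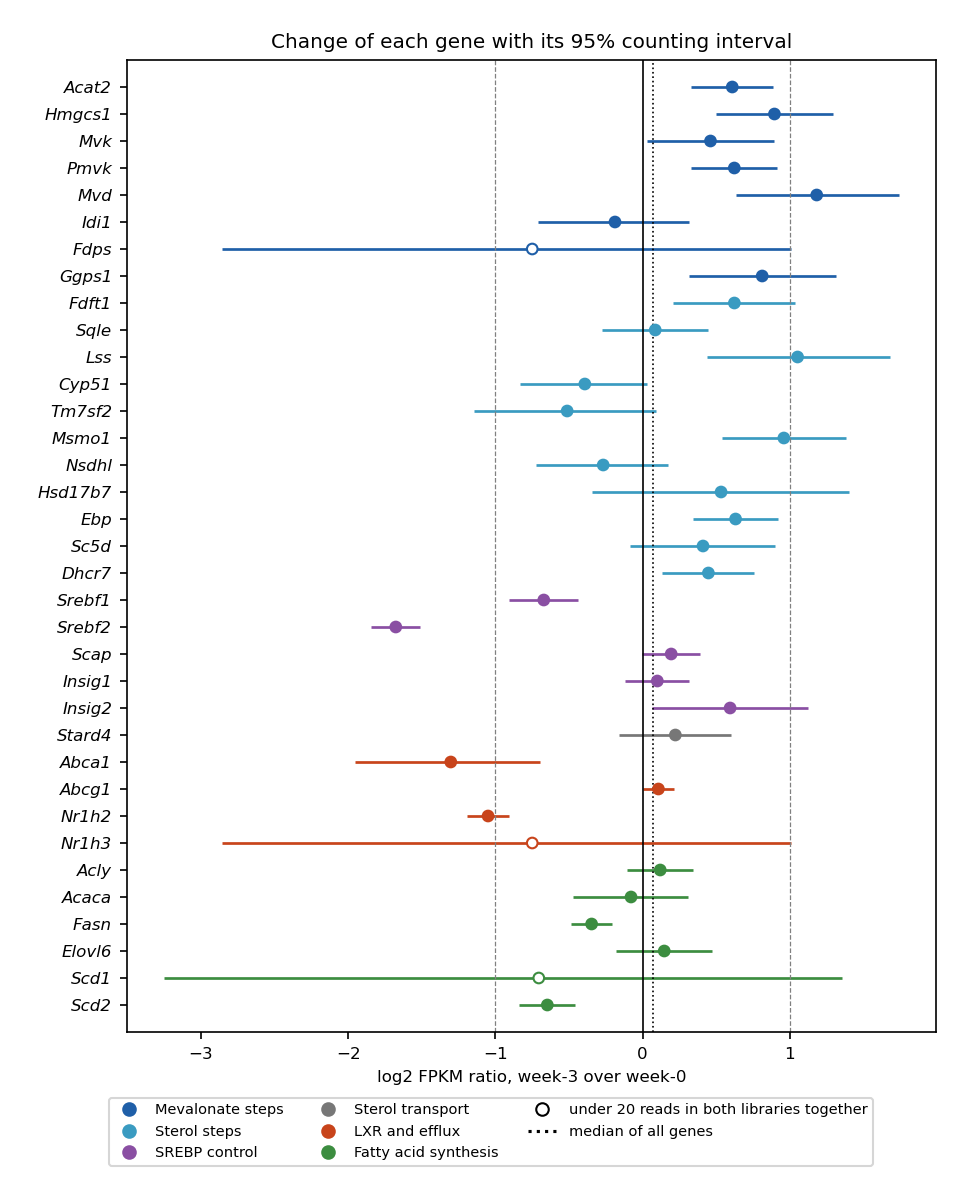
log2 FPKM ratio of each gene, week-3 over week-0, with its 95% counting interval as a line, dashed lines at 2-fold, a dotted line at the median of all genes and open circles for the 3 genes under 20 reads. The intervals of 6 genes, Srebf2, Abca1, Nr1h2, Srebf1, Scd2 and Fasn, lie below 0 (28.5% of all genes). Those of 13 genes, 11 of them sterol enzymes, lie above it (34.0% of all genes).

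Of the 3 measured LXR genes, 1 was higher and 2 lower, against 53.4% of all genes higher. The 2 lower genes, an exporter and a receptor, were past 2-fold (15.6% of all genes downward). The exporter genes Abca1 and Abcg1 split, and summed 71.5 FPKM at week-0 against 75.8 at week-3. Abca1, the exporter that loads cholesterol onto apolipoprotein particles (chr4:53030787-53159895, minus strand), had 1.68 FPKM at week-0 against 0.682 at week-3 (113 and 28 reads). Its ratio was 0.405, a log2 ratio of -1.30 (-1.96 to -0.70), or -0.67 with log2(FPKM + 1), which is short of 2-fold. Nr1h2, which encodes LXRβ, the receptor present in most tissues (chr7:44549616-44553951, minus strand), had 32.8 FPKM at week-0 against 15.9 at week-3 (1815 and 536 reads), a ratio of 0.483 and a log2 ratio of -1.05 (-1.19 to -0.91). The other exporter behaved differently. Abcg1, which passes cholesterol to mature HDL, had 69.8 FPKM at week-0 against 75.2 at week-3 (1863 and 1227 reads) and a log2 ratio of 0.11 (0.0020 to 0.21), or -0.0051 under TMM. It had the highest deposited FPKM of the 35 genes in both libraries. Both exporters hold miR-33 matches. The looser LXR-type element cannot be compared between the exporters, because the promoter of Abcg1 was not available to search. Nr1h3, which encodes LXRα, the form of liver and macrophages, had 11 and 4 reads (0.334 FPKM at week-0 against 0.199 at week-3), too few to place.

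Set against each other, the 25 measured SREBP targets had a median log2 ratio of 0.41 (18 higher, 7 lower, or 16 and 9 under TMM) and the 3 LXR genes one of -1.05 (1 higher, 2 lower, or all 3 lower under TMM), a difference of 1.46. A change of scaling moves both medians alike and so cannot bear on this difference. The SREBP targets are the sterol and fatty acid enzymes with Insig1 and Stard4, 27 genes of which Fdps and Scd1 were not measured. The sides are built unlike. The LXR side holds the receptor gene Nr1h2, whose log2 ratio is the median of that side. The SREBP side leaves out the factor genes Srebf2 (-1.68) and Srebf1 (-0.67). With Abca1 (-1.30) and Abcg1 (0.11) alone on the LXR side, the difference was 1.01. With the sterol enzymes alone on the SREBP side it was 1.62. The difference rests on few LXR genes and was not tested. By sum, the LXR genes went from 105 to 91.9 FPKM, of which Abcg1 was the larger part.

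The fatty acid enzymes were split in direction. Of 5 measured, 2 were higher and 3 lower, against 53.4% of all genes higher, with a median of -0.08. None passed 2-fold (10.6% of all genes upward and 15.6% downward). The interval lay below 0 for 2 of them (28.5% of all genes) and above 0 for none (34.0%). Their summed level was 50.8 FPKM at week-0 and 39.8 FPKM at week-3. Fasn, the synthase that builds palmitate and a gene with the looser LXR-type element, had 14.8 FPKM at week-0 against 11.6 at week-3 (1308 and 629 reads) and a log2 ratio of -0.35 (-0.49 to -0.21). Scd2, a desaturase that makes oleate-type fatty acids, had 23.9 FPKM at week-0 against 15.3 at week-3 (830 and 324 reads) and a log2 ratio of -0.65 (-0.84 to -0.46), past 1.5-fold, and its interval, like that of Fasn, lay below 0.

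The enzymes before and after Fasn had intervals that include 0. Acly, which supplies cytosolic acetyl-CoA to both pathways, had 7.84 FPKM at week-0 against 8.51 at week-3 (408 and 271 reads) and a log2 ratio of 0.12 (-0.11 to 0.34). Acaca, the carboxylase that commits acetyl-CoA to fatty acids, had 1.18 FPKM at week-0 against 1.12 at week-3 (152 and 88 reads) and a log2 ratio of -0.08 (-0.47 to 0.31), with 52.6% of its 50-base stretches shared, mainly with Gm5182. Elovl6, which lengthens palmitate, had 2.78 FPKM at week-0 against 3.07 at week-3 (195 and 132 reads) and a log2 ratio of 0.15 (-0.18 to 0.47). Scd1, the desaturase best known from liver, had 8 and 3 reads (0.260 FPKM at week-0 against 0.160 at week-3), far fewer than Scd2.

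Beyond the 35, 65 genes of the same pathways were listed and 55 of them were measured. They had a median of 0.18, with 36 higher and 19 lower (29 and 26 under TMM), against 53.4% of all genes higher. Past 2-fold were 7 up and 7 down, against 10.6% and 15.6% of all genes. All 6 other sterol and isoprenoid enzymes were higher (5 of 6 under TMM), with a median of 0.84. Pdss2, of ubiquinone side-chain synthesis, had 0.420 FPKM at week-0 against 1.02 at week-3 (23 and 34 reads) and a log2 ratio of 1.27 (0.47 to 2.10). The 6 SREBP proteases and degradation factors split evenly, 3 higher and 3 lower, with a median of 0.01 (-0.10 under TMM) and none past 2-fold.

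Genes that move and store sterol gave 7 higher and 3 lower of 10, against 53.4% of all genes higher. Past 2-fold were 2 up and 2 down, against 10.6% and 15.6% of all genes. Soat1, which esterifies cholesterol for storage, rose from 2.24 FPKM at week-0 to 6.48 at week-3 (187 and 331 reads), a log2 ratio of 1.53 (1.27 to 1.80). Scarb1, the HDL receptor, rose too, with 3.996 FPKM at week-0 against 9.40 at week-3 (312 and 449 reads) and a log2 ratio of 1.23 (1.02 to 1.45). Npc1, which releases cholesterol from lysosomes, fell, with 3.98 FPKM at week-0 against 0.920 at week-3 (396 and 56 reads) and a log2 ratio of -2.11 (-2.54 to -1.71), as did Gramd1a, which moves plasma membrane cholesterol inward, with 43.4 FPKM at week-0 against 15.7 at week-3 (2024 and 449 reads) and a log2 ratio of -1.46 (-1.61 to -1.31). Of the other LXR targets and partners, 2 of 6 were higher and 4 lower, with a median of -0.76, against 53.4% of all genes higher. Past 2-fold were 3 of the 6, all downward (15.6% of all genes downward). Arl4c, a small GTPase induced by LXR, fell furthest, with 13.4 FPKM at week-0 against 1.97 at week-3 (687 and 62 reads) and a log2 ratio of -2.76 (-3.16 to -2.38). Mylip, an LXR-induced ligase that removes lipoprotein receptors, had 15.8 FPKM at week-0 against 7.48 at week-3 (307 and 89 reads) and a log2 ratio of -1.08 (-1.43 to -0.73) and passed 2-fold as well. The RXR receptors, with which LXR pairs, went in opposite directions. Rxra had 1.31 FPKM at week-0 against 0.559 at week-3 (69 and 18 reads) and a log2 ratio of -1.23 (-2.07 to -0.46), while Rxrb had 7.47 FPKM at week-0 against 14.2 at week-3 (335 and 389 reads) and a log2 ratio of 0.93 (0.71 to 1.14), past 1.5-fold and named after its values were seen.

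Of 17 other fatty acid synthesis and elongation genes, 11 were higher and 6 lower (9 and 8 under TMM), with a median of 0.26. Mid1ip1, an activator of acetyl-CoA carboxylase, had 5.14 FPKM at week-0 against 10.3 at week-3 (141 and 173 reads) and a log2 ratio of 1.005 (0.68 to 1.34), and Elovl7, an elongase, had 0.579 FPKM at week-0 against 1.33 at week-3 (20 and 28 reads) and a log2 ratio of 1.20 (0.32 to 2.10). Acacb, the carboxylase of mitochondria, had 0.663 FPKM at week-0 against 0.316 at week-3 (55 and 16 reads) and a log2 ratio of -1.07 (-1.97 to -0.25), and Fads3, a desaturase, had 3.13 FPKM at week-0 against 0.866 at week-3 (65 and 11 reads) and a log2 ratio of -1.85 (-2.92 to -0.92). Fatty acid oxidation, the reverse process, had 7 of 10 genes higher and a median of 0.06 (4 of 10 and -0.052 under TMM), with Cpt2, the inner membrane carnitine transferase, as the one past 2-fold, at 1.78 FPKM at week-0 against 6.32 at week-3 (60 and 130 reads) and a log2 ratio of 1.83 (1.37 to 2.29). Wider lists taken from the deposited GO terms, which hold some of the same genes, gave medians of 0.43 for cholesterol biosynthetic process (21 of 32 genes higher), 0.03 for fatty acid biosynthetic process (47 of 91) and 0.05 for cholesterol efflux (11 of 18). Of all genes, 53.4% were higher. The last pair of medians turns negative under TMM, at -0.080 and -0.059.

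**Figure D4:**
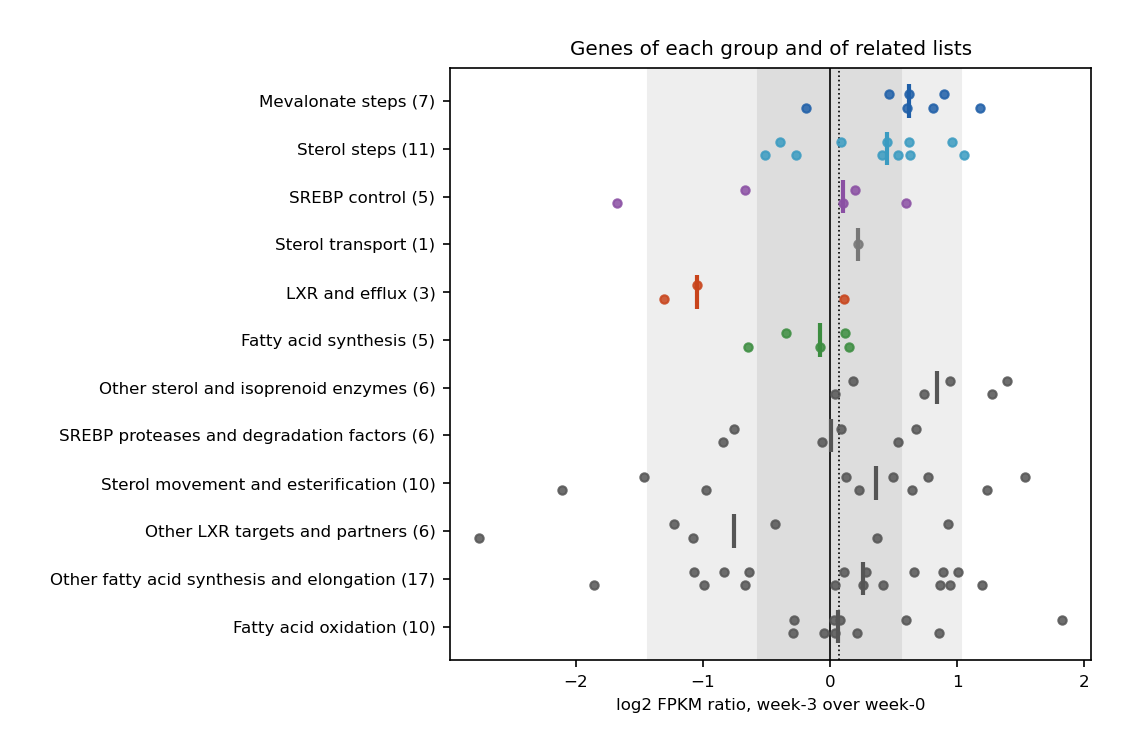
log2 FPKM ratio of each measured gene (points) by role, with the number of genes in brackets, a bar at the median of each group, and grey bands for the middle 50% and 80% of all 12192 genes. The mevalonate steps centre at 0.62, the sterol steps at 0.45, fatty acid synthesis at -0.08, and the LXR genes at -1.05, and every group overlaps the band of all genes.

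As a check of how firmly single genes can be called, edgeR's exact test was run on the reads with an assumed variation between samples, since none can be estimated. With a coefficient of variation of 0.1, q-values under 0.05 and the 2-fold limit, Lss and Mvd were called higher (8.11% of 15377 genes) and Abca1, Nr1h2 and Srebf2 lower (10.1%). With 0.4 none of the 35 genes was called in either direction (0.189% and 0.566% of genes). Such a test compares these 2 libraries and not the conditions.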

How the data were processed

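RNA-seq of BM LSKs was analysed from 1 library at week-0 and 1 at week-3, each of 3 mice mixed. The cDNA was amplified and reads were mapped to GRCm38. The submitters' processing notes name TopHat2 2.0.9 and mm10, and the counting tool and annotation are not given in the sources used here. The authors deposited, per gene, counts as whole reads and FPKM scaled by exon length and by reads on genes. Log2 ratios of FPKM and of reads over library totals differed by at most 0.00053 over 12082 genes. Depth was 6356164 and 3886695 reads.

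Genes with at least 20 reads over both libraries were compared by the ratio of deposited FPKM, with Clopper-Pearson intervals from the reads. Transcripts came from GENCODE M21. The 35 genes and all lists were chosen with earlier results of these data known. All 35 are named, and further pathway genes where past 2-fold with an interval beyond 0, except 1 that is not reported here. Alternatives were TMM (edgeR 4.0.16) and median-of-ratios (DESeq2 1.42.0) scaling, read limits, pseudocounts, a 1.5-fold limit and edgeR's exact test at 2 assumed variations. R 4.3.3, matplotlib 3.10.9, scipy 1.17.1, pandas 2.3.3, numpy 2.4.6 and Python 3.11.15 were used, and procedures were tested on simulated data. The miRNA array and qRT-PCR were not analysed here.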

Additional observations from a re-analysis of the deposited data

How the results depend on the processing

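No paired analysis was possible because each time point has 1 library, and for the same reason no replicate could be left out. Scaling by TMM lowered all ratios by 0.11 on the log2 scale and by median-of-ratios by 0.09, which took the median of all genes from 0.07 to -0.04 and -0.02. The median of the SREBP control genes then went from 0.10 to -0.013 under TMM. The median for fatty acid biosynthetic process (0.03) became -0.080 under TMM, -0.057 under median-of-ratios and -0.014 with at least 1 read, and that for cholesterol efflux (0.05) became -0.059 and -0.036 under these scalings. For cholesterol biosynthetic process the median (0.43) was 0.32 under TMM and 0.34 under median-of-ratios. It was 0.29 with log2(FPKM + 1), 0.19 with at least 1 read and 0.45 with at least 50 reads. The median of the LXR genes (-1.05) was -0.67 with log2(FPKM + 1). Upregulated members numbered 1 under TMM and 1 under median-of-ratios, where Mvd was past 2-fold and Lss was not, beside 8.51% and 8.83% of all genes higher and 17.5% and 17.2% lower. With log2(FPKM + 1) 1 member was higher and 2 lower past 2-fold, since Lss (0.35) and Abca1 (-0.67) fell short. At a limit of 1.5-fold, 10 of 32 members were higher and 5 lower, and of 55 further pathway genes 19 and 14. Of all genes, 23.7% were higher and 24.6% lower at that limit. At the 2-fold limit, with an assumed variation of 0.4 in edgeR's exact test, members and further pathway genes each numbered 0 higher and 0 lower.

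The difference between SREBP targets and LXR genes was 0.92 with log2(FPKM + 1), 1.12 with at least 1 read and 1.37 with at least 50 reads. It was 1.46 without members that share 10% or more of their sequence, an alternative chosen after seeing the data. Under TMM the ratios of Sqle, Insig1 and Abcg1, all close to 0, turned negative, as did that of Sqle under median-of-ratios. With 1 pooled library per time point, depth and the spread between mice limit every value given.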
